A study of Homo sapiens with 36 samples.

Results

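Imprinted genes, which are expressed mainly or only from the copy inherited from 1 parent, were followed through neuronal induction of human stem cells with and without RAI1. The 10 genes are H19, IGF2, MEG3, MEG8, DLK1, PEG3, PEG10, SNRPN, KCNQ1OT1 and CDKN1C, taken by symbol from deposited tables that hold 62710 genes; each symbol matched 1 row. The cells were H9, an established human embryonic stem cell line, in which doxycycline drives NGN2, the proneural transcription factor encoded by NEUROG2 that converts stem cells directly into neurons. All groups carried this NGN2 system and were labelled WT, HET (RAI1+/-) or KO (RAI1-/-) and day 0, day 3 or day 7 of differentiation. RAI1 encodes a chromatin-associated protein that is haploinsufficient in Smith-Magenis syndrome, a neurodevelopmental disorder. Each of the 9 groups held 4 libraries of total RNA depleted of ribosomal RNA, 36 in all, with 1 batch label. The labels do not give the number of clones behind a genotype, nor say that replicates came from separate cultures, so p-values measure only the spread between these samples, which may be technical. Values are summed over both parental copies: the tables carry no allele information, and neither loss nor gain of imprinting can be read from them.

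Imprinted genes lie in clusters governed by a control region that is methylated on only 1 parental copy. At 11p15 the maternally expressed RNA H19 and the paternally expressed growth factor gene IGF2 share enhancers under 1 control region, and the neighbouring paternal RNA KCNQ1OT1 silences CDKN1C on its own chromosome. At 14q32 DLK1 and RTL1 are read from the paternal copy and the RNAs MEG3 and MEG8 from the maternal copy. PEG10, PEG3 and SNRPN are paternally expressed genes of 7q21, 19q13 and 15q11; in human pluripotent cell lines the MEG3 cluster is known to be silenced in many cultures.

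The genes were placed on GRCh38 with GENCODE 29. H19 (a long noncoding RNA) spans chr11:1995176-2001470 on the minus strand, and IGF2 (protein-coding) chr11:2129112-2149603 on the same strand. KCNQ1OT1, annotated as antisense to KCNQ1, spans chr11:2608328-2699994 and CDKN1C (protein-coding) chr11:2883213-2885773, both on the minus strand. DLK1 (protein-coding, chr14:100725705-100738224), MEG3 (chr14:100779410-100861031) and MEG8 (chr14:100894770-101038859; both long intergenic noncoding RNAs) lie on the plus strand of chromosome 14. The remaining members are protein-coding: PEG10 at chr7:94656325-94669695 and SNRPN at chr15:24823637-24978723 on the plus strand, and PEG3 at chr19:56810077-56840728 on the minus strand. Whether strand was used in counting is not given in the sources used here, so reads of overlapping genes cannot be told apart. The partners differ in weight: SNRPN lies within the host transcript SNHG14, whose group means reached 2200 CPM (counts relative to library size, scaled by TMM, edgeR's trimmed mean of M-values), SGCE next to PEG10 reached 48.5 CPM, KCNQ1 opposite KCNQ1OT1 1.1 CPM, and RTL1 opposite MEG8 1.84 CPM.

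RefSeq promoter windows (GRCh38.p14, 250 bases before to 50 after a transcript start) were given for 3 of the 10 genes: H19, MEG3 and SNRPN. They are shown because they span the extremes of the data below: SNRPN was the most abundant member at day 0 and MEG3 one of the least. Capitals mark TGCCGC, the hexamer recognised by the imprint-protecting protein ZFP57, or CAGATG, an E-box bound by proneural factors such as NEUROG2, on either strand. The H19 window is chr11:2001217-2001516 (minus strand), the MEG3 window chr14:100825858-100826157 (plus strand, the first of 3 overlapping windows given), and the SNRPN sequence the 250 bases before the start of 1 of its 4 windows, chr15:24954737-24954986 (plus strand). Of the 4 windows it holds the most hexamers.
H19: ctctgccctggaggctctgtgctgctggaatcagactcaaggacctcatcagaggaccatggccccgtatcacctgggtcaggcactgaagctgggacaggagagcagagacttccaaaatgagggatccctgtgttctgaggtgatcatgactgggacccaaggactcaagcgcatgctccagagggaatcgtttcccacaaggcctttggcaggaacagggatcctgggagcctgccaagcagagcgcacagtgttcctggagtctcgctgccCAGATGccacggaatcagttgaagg
MEG3: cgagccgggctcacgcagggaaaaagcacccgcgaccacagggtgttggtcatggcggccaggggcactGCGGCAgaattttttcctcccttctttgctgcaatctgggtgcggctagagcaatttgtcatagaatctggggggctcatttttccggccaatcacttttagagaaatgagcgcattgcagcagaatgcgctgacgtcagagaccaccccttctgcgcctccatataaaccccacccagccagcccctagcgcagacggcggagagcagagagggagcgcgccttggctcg
SNRPN: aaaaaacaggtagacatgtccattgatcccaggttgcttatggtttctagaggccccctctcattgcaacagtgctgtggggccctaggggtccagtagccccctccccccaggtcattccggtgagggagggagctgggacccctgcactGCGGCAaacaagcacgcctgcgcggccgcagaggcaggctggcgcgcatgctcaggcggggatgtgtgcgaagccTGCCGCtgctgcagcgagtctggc
The H19 window held 1 E-box, 25 bases after the start, no hexamer and 6 CpG dinucleotides. The MEG3 window held 1 hexamer, whose first base lies at -181, and 19 CpG. The SNRPN window of 300 bases held 2 hexamers at -99 and -24 in the part shown, 1 E-box at 33 in the part not shown, and 18 CpG. The other 3 SNRPN windows held 0, 0 and 1 hexamer, no E-box, and 7, 2 and 11 CpG. Of 35116 RefSeq windows of this length, 16.7% held the hexamer and 14.7% the E-box, and the median was 14 CpG. A match describes letters and shows no binding.

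Library totals ran from 23.9 to 56.7 M counts, and 5 small structural RNAs took 4.02% to 6.45% of a library at day 0, 3.54% to 19.6% at day 3 and 2.84% to 27.5% at day 7. RAI1 itself was not lower in mutant libraries: its day 0 means for WT, HET and KO were 33.5 ± 8.26, 38.1 ± 7.84 and 37.1 ± 12.3 CPM (mean ± SD, n = 4) and those of day 7 52.4 ± 15.3, 73.3 ± 15.7 and 84.7 ± 14.2 (KO against WT 0.69, SE 0.22, edgeR adjusted p = 0.0296). Total RAI1 counts therefore did not separate the labelled genotypes, and every direction below is that of libraries as labelled. The summed CPM of 10 stem cell markers lay within 2530 to 5770 at day 0, so these libraries, which also carry the label iNeuron, held abundant stem cell RNA. At day 3 the sum was 219 to 338 in WT, 260 to 477 in HET and 342 to 470 in KO, and at day 7 70.1 to 111, 111 to 215 and 299 to 361. KO lay above WT without overlap on both days. Of 7 markers tested 2 were called higher in KO at day 3, and at day 7 3 of 4 were higher (DNMT3B, LIN28A and PRDM14) and DPPA4 lower. The sum of 10 neuron markers at day 3 was 1438 to 1820 CPM in WT, 2165 to 5215 in HET and 5615 to 9409 in KO, and at day 7 6936 to 13830, 14790 to 19150 and 16650 to 22270. The WT range overlapped neither mutant range on either day, and 10 of 10 neuron markers were called higher in KO at day 3 and 7 at day 7 (6 and 5 in HET). Neuron RNA and, in KO, the stem cell sum thus moved in the same direction as the members described next, and their part in the differences was not tested. In bulk RNA a change in the share of a cell type and a change in RNA per cell cannot be told apart. Mesenchymal markers summed to 31.9 to 42.6 CPM in WT at day 7, 3.41 to 39.6 in HET and 2.71 to 6.04 in KO, opposite in direction to DLK1 and SNRPN. Of 5 tested 3 were called lower in KO (ACTA2, COL1A1 and COL1A2). Neural progenitor markers summed to 200 to 1505 CPM over all libraries, and at day 7 3 of 10 were lower in KO (PAX6, SOX2 and SOX1). Neural crest markers summed to 20.8 to 152 CPM. At day 0 the ranges of WT (77 to 106), HET (115 to 129) and KO (134 to 152) did not overlap. Endoderm markers summed to 2.56 to 11.8 CPM at day 3 and 29.2 to 102 at day 7. CXCR4, which other cells also express, was the only one of them called between these days, and AFP, TTR and APOA2 were at 0 in every day 7 library. Trophoblast markers summed to at most 6.8 CPM in any library.

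Per length, on the deposited TPM (a measure scaled to transcript length and library total), SNRPN or PEG10 ranked first in every group. SNRPN, which encodes a protein of the small nuclear ribonucleoproteins that splice RNA, ranked first in all day 0 and day 3 groups, at 255 ± 29.5 TPM in WT at day 0 (SD, n = 4) and 72.1 ± 17.1 at day 3. PEG10, a gene derived from a retrotransposon that encodes a Gag-like protein, ranked first in all day 7 groups, at 93.1 ± 36.5 TPM in WT, 341 ± 234 in HET and 219.6 ± 57.6 in KO. These values rank members within a group and do not compare genotypes. On TPM the median difference of all genes between HET and WT at day 7 was 0.458 log2. On TMM-scaled counts PEG10 was 1.71-fold higher in HET than in WT and was not called. CDKN1C, an inhibitor of cyclin-dependent kinases, went from 6.46 ± 1.61 TPM in WT at day 0 to 55.4 ± 24.5 at day 7. In KO at day 3 the ranges of SNRPN and PEG10 overlapped, and at day 7 so did more of the order: the library ranges of PEG10 and SNRPN overlapped in each genotype, and so did those of SNRPN and CDKN1C in WT and HET. DLK1 held place 3 or 4 in every group, at 4.57 ± 3.1 TPM in WT at day 0 and 74.9 ± 34.9 in KO at day 7, where its range overlapped that of CDKN1C. The WT means of H19, IGF2 and KCNQ1OT1 stayed under 7 TPM on every day. MEG8, MEG3 and PEG3 held the last 3 places in all 9 groups.

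**Figure D1:**
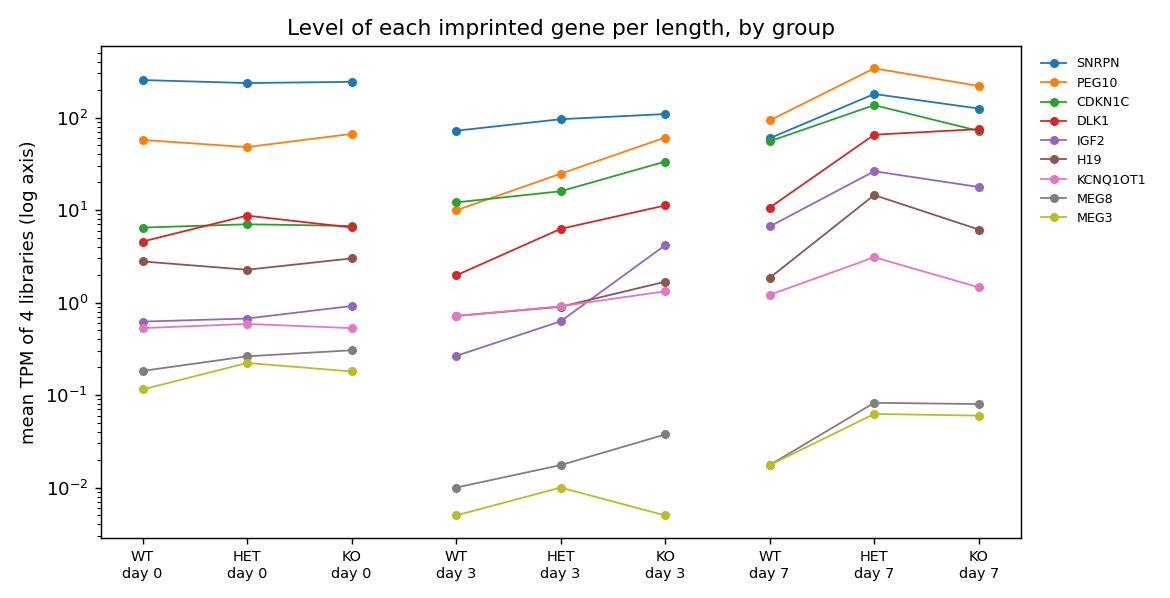
Mean deposited TPM of 4 libraries (log axis) for each imprinted gene in the 9 genotype-day groups; lines join genotypes of 1 day and PEG3, at or near 0 in every group, is not drawn. SNRPN was highest at days 0 and 3, PEG10 at day 7, and MEG3 and MEG8 had means below 0.1 TPM after day 0.

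Genotypes were compared within each day on counts, with edgeR's quasi-likelihood test and Benjamini-Hochberg adjustment over all genes tested. A gene was called at an adjusted p under 0.05. At day 0 none of 9 members tested was called in KO or HET against WT, where 2.08% and 1.63% of all genes were; 1 and 0 members had an unadjusted p under 0.05, and neither DESeq2 nor limma called any. Nor did the 4 libraries of either mutant lie apart from the 4 WT libraries for any of these 9, against 4.5% (higher) and 4.8% (lower) of all genes in KO and 3.56% and 4.26% in HET. In KO at day 3, 3 of 7 were called, all higher (IGF2, DLK1 and PEG10), against 21.6% of all genes called and 12.6% called higher, and for these 3 every KO library exceeded every WT library, as for 14.2% of all genes. In HET at day 3 PEG10 alone was called (higher), against 3.28% of all genes and 2.52% in that direction, while IGF2, DLK1 and PEG10 had no overlap with WT, against 4.63%. At day 7 DLK1 and SNRPN were called higher in KO of 8 tested (32.6% of all genes were called and 17% called higher) and H19 in HET (14.4% and 8.31%). Groups without overlap at day 7 were DLK1, PEG10 and SNRPN in KO (20.9% of all genes) and H19, IGF2 and SNRPN in HET (7.55%). The counts of members called at day 7 were near the background in both mutants. Median log2 differences of the members tested were 0.33, 0.88 and 0.91 in KO at days 0, 3 and 7 and 0.15, 0.24 and 1.05 in HET, beside all-gene medians of 0.01, -0.05, -0.04, 0.01, 0.02 and 0.00. No member was called lower in a mutant on any day, and HET and KO were set against the same WT libraries.

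KO was also set directly against HET. At day 3 IGF2 and PEG10 were called higher in KO of 7 tested, against 4.35% of all genes called and 2.77% called higher, and PEG10 alone had no overlap, against 6.81%. At day 0 none of 9 members was called (0.856% of all genes; 1 had an unadjusted p under 0.05) and at day 7 none of 8 (1.4%; 0 had), and DESeq2 and limma called none on either day.

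**Figure D2:**
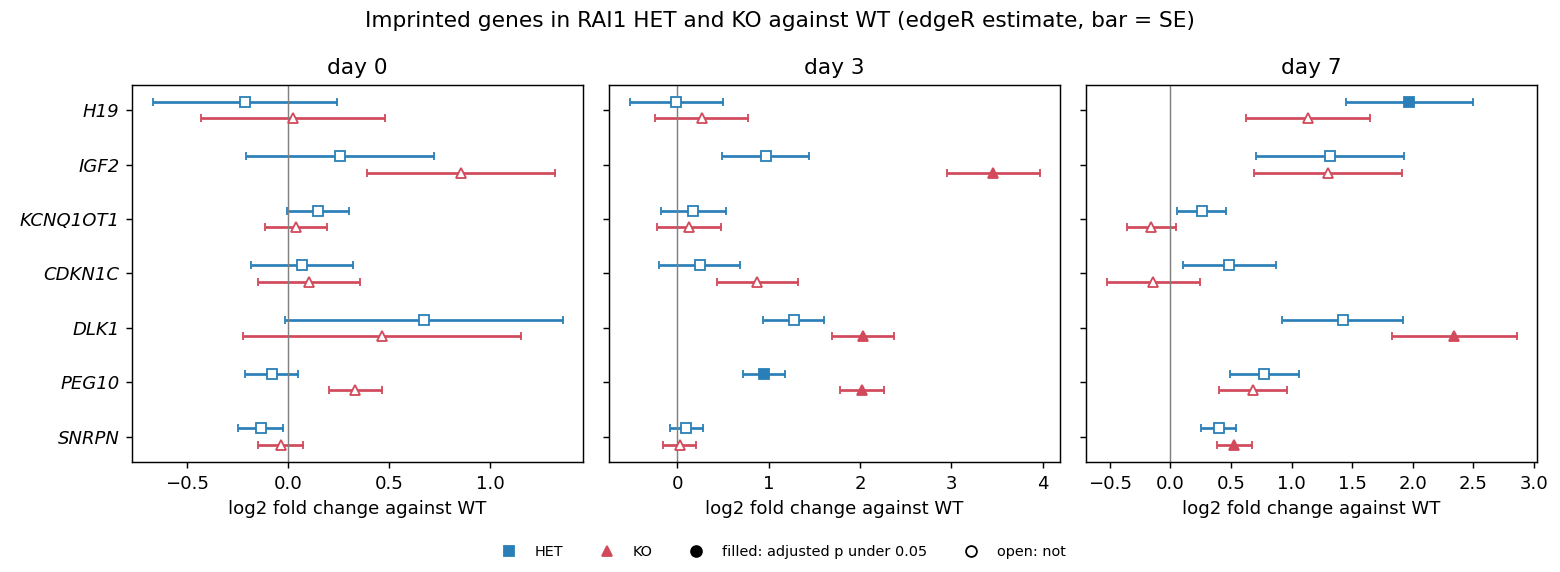
Log2 fold change against WT (horizontal axis, edgeR estimate, bar = SE) of the 7 members above the floor in every library, at days 0, 3 and 7; squares are HET, triangles KO, and filled symbols passed an adjusted p of 0.05. No symbol is filled at day 0, IGF2, DLK1 and PEG10 in KO and PEG10 in HET are filled at day 3, and H19 in HET and DLK1 and SNRPN in KO at day 7.

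At 11p15 the clearest difference was in IGF2, which encodes insulin-like growth factor 2, a fetal growth factor. In the 4 WT libraries of day 3 it was at 1.07, 1.96, 1.91 and 2.34 CPM, in HET at 2.86, 4.08, 2.35 and 4.81, and in KO at 4.57, 36.8, 23.1 and 17.1. All KO libraries lay above all WT libraries, and 3 of the 4 lay above every HET library; KO replicate 1 lay within the HET range. The KO difference was 11-fold (log2 fold change 3.46, SE 0.51, edgeR adjusted p = 0.000374), and no alternative or left-out library ended it. The HET difference, 0.97 (SE 0.48, edgeR adjusted p = 0.387), was not called although its libraries did not overlap WT. KO exceeded HET by 5.62-fold (log2 fold change 2.49, SE 0.48, edgeR adjusted p = 0.0123); without HET day 3 replicate 1 the adjusted p was 0.0568, and in limma on log2(TPM + 1) it was 0.275.

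At day 0 IGF2 had been low in all genotypes, with overlapping ranges of 1.51 to 3.73 CPM in WT, 1.33 to 4.3 in HET and 2.22 to 6.56 in KO. The KO difference from WT was 0.85 (SE 0.46, edgeR adjusted p = 0.509) and was not called. By day 7 it was high in all of them: 39.6, 58.2, 89.2 and 57.5 CPM in WT, 168, 96.7, 93.6 and 254 in HET and 36.8, 48.2, 139 and 372 in KO. The HET libraries lay above all WT libraries, whereas KO replicate 1 lay below the WT range, replicate 2 within it and replicates 3 and 4 above it. Neither mutant passed at day 7 (HET 1.32, SE 0.61, edgeR adjusted p = 0.169; KO 1.3, SE 0.61, edgeR adjusted p = 0.12). Without KO day 7 replicate 4 the KO difference was 0.29 (adjusted p 0.661).

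H19, the noncoding RNA that hosts the microRNA miR-675, stayed under 10 CPM in every library of days 0 and 3. At day 7 it was at 3.91, 6.2, 8.33 and 9.1 CPM in WT, 16.9, 18.2, 20.9 and 52.7 in HET and 5.5, 7.63, 18.4 and 28.6 in KO. All HET libraries lay above all WT libraries, and 2 of 4 KO libraries did. HET was 3.92-fold above WT (log2 fold change 1.97, SE 0.52, edgeR adjusted p = 0.0238), and KO was not called (1.13, SE 0.51, edgeR adjusted p = 0.107). The HET call was not kept throughout: its adjusted p was 0.0501 to 0.0717 without WT day 7 replicate 1, 2 or 3 or HET day 7 replicate 4. The difference without the last was 1.44, and limma on log2(TPM + 1) gave an adjusted p of 0.0567. At day 3 replicate 4 was the highest H19 library in each genotype, at 4.10, 6.19 and 4.32 CPM in WT, HET and KO. In KO replicate 3 was close to it, at 4.14 CPM. The same replicate 4 libraries had the highest mesenchymal marker sums of their groups (576, 895 and 341 CPM, against 226 to 323, 138 to 325 and 113 to 238 in the others). They were highest for stem cell markers (338, 477 and 470 CPM) and neural progenitor markers (1370, 1240 and 1010) as well. Their neuron sums were the lowest of the group in HET (2160 CPM) and KO (5610), but not in WT. At day 7 HET replicate 4, the highest H19 library, also had the highest mesenchymal sum of its group (39.6 CPM, against 3.41 to 18.6). In WT and KO at day 7 the order was the reverse. Replicate 1 had the highest mesenchymal sum there (42.6 and 6.04 CPM) and the lowest H19 (3.91 and 5.5 CPM). Without HET day 3 replicate 4 the H19 difference between HET and WT at day 3 went from -0.01 to -0.85 (adjusted p 0.213). The part of those markers in the H19 values was not tested.

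KCNQ1OT1, the paternal RNA, and CDKN1C, whose copy on the same paternal chromosome it silences, were not called between genotypes on any day. Both rose over time in every genotype. KCNQ1OT1 was at 63.3 ± 8.1, 69 ± 14.5 and 63.7 ± 9.21 CPM in WT, HET and KO at day 0 (SD, n = 4), and at 362 ± 69.3, 435 ± 37.7 and 324 ± 87.5 at day 7. At day 3 it was at 197, 117, 179.5 and 211 CPM in WT, 219, 110.2, 101 and 354 in HET and 246, 171, 159.7 and 201 in KO, so that the HET libraries spanned the other groups. Its largest difference from WT was 0.26 (SE 0.20, edgeR adjusted p = 0.437), in HET at day 7. CDKN1C at day 3 was at 39.4, 32.7, 45.4 and 70.2 CPM in WT, 46.7, 23.3, 31.9 and 117 in HET and 81.9, 49.2, 108 and 109 in KO. KO replicate 2 lay within the WT range and the other 3 above it, and the difference in KO (0.88, SE 0.44, edgeR adjusted p = 0.178) was not called. With the replicate number as a block, a pairing that the labels do not give, it was 0.88 at an edgeR adjusted p of 0.0123. It was 1.35 (adjusted p 0.038) in limma on log2(TPM + 1) and 1.23 (adjusted p 0.0151) with the share of small structural RNAs as a covariate. KO against HET was 0.63 (SE 0.44, edgeR adjusted p = 0.49) and, without HET day 3 replicate 4, 1.35 (adjusted p 0.0404). Without the same library the difference between HET and WT went from 0.24 to -0.46. Replicate 4 of day 3 had the highest mesenchymal, stem cell and neural progenitor sums, as given above. It was the highest CDKN1C library of each genotype and the highest KCNQ1OT1 library of WT and HET. In KO its CDKN1C margin over replicate 3 was small (109 against 108 CPM), with mesenchymal sums of 341 and 126 CPM. The highest KCNQ1OT1 library of KO was replicate 1, which had the lowest mesenchymal sum of its group (113 CPM). The part of those markers was not tested. CDKN1C at day 7 was at 112, 250, 375 and 349 CPM in WT, 640.2, 238, 238 and 413 in HET and 173, 228, 243 and 336 in KO, with wide overlap.

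**Figure D3:**
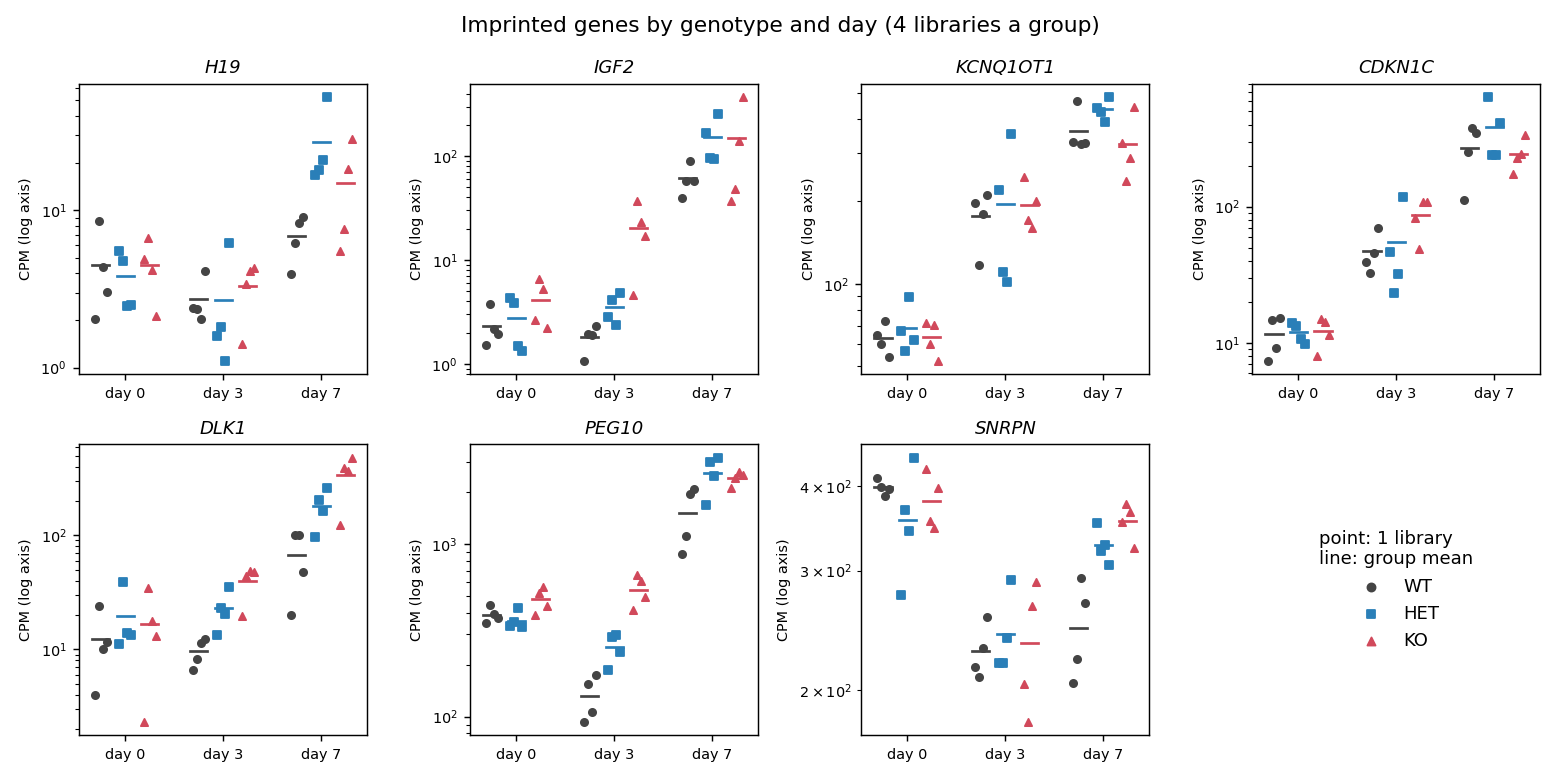
CPM (log axis, a separate scale for each gene) of the 7 members above the floor in all 36 libraries; each point is 1 library and each line a group mean. IGF2 and PEG10 at day 3 show KO above WT without overlap, DLK1 in KO lies above WT at days 3 and 7, and KCNQ1OT1 and CDKN1C increase with time in all 3 genotypes.

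At 14q32 DLK1, which encodes a membrane ligand related to Notch ligands, was higher in KO on both days of induction. At day 3 it was at 6.58, 8.26, 11.4 and 12.2 CPM in WT, 13.3, 23.2, 20.6 and 35 in HET and 19.5, 43.6, 48.9 and 47.9 in KO. Both mutants lay above WT without overlap, and KO replicate 1 fell among the HET libraries. KO was 4.11-fold higher (log2 fold change 2.04, SE 0.34, edgeR adjusted p = 0.000909). HET missed the threshold (1.28, SE 0.33, edgeR adjusted p = 0.0553). With the replicate number as a block, a pairing that the labels do not give, it was 1.24 with an edgeR adjusted p of 0.000744. Only 2 of 4 HET libraries correlated best with the WT library of their own number here. Without HET day 3 replicate 1 the adjusted p was 0.0355.

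At day 7 DLK1 was at 20.1, 101, 100.4 and 48 CPM in WT, 97, 205, 164 and 259 in HET and 123, 392, 367 and 479.9 in KO. Every KO library exceeded every WT library, and HET replicate 1 lay within the WT range. KO was 5.06-fold higher (log2 fold change 2.34, SE 0.52, edgeR adjusted p = 0.0043), and no left-out library or alternative ended the DLK1 calls in KO on either day. HET was not called (1.42, SE 0.50, edgeR adjusted p = 0.075), and passed without HET day 7 replicate 1 (adjusted p 0.0281), the library with 27.5% of its counts in small structural RNAs. At day 0 the 3 genotypes overlapped widely, and replicate 2 was the highest DLK1 library in each, at 24.1, 39.1 and 34.2 CPM in WT, HET and KO. Those 3 libraries also had the highest mesenchymal marker sums, 1130, 1410 and 1480 CPM against 198 to 601 in the other day 0 libraries. They were the highest of their groups for neuron markers (573, 690 and 799 CPM) and neural progenitor markers (1360, 1460 and 1500) as well. Their stem cell sums were the lowest of their groups (3040, 2910 and 2530 CPM). The part of these marker differences in the DLK1 values was not tested.

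The maternal RNAs of the domain were close to the floor of 3 counts per library. MEG3 exceeded it in 22 of 36 libraries and MEG8 in 18, and all 36 libraries together held 276 and 273 counts. Summed over the 4 libraries of a group, MEG3 had 43, 61 and 55 counts in WT, HET and KO at day 0, 4, 5 and 3 at day 3, and 15, 41 and 49 at day 7. Counts were lowest at day 3 in each genotype. Relative to library size, the ratio of day 3 to day 0 was 0.0807 (95% counting interval 0.021 to 0.222) in WT, 0.0646 (95% counting interval 0.0203 to 0.159) in HET and 0.0432 (95% counting interval 0.00865 to 0.133) in KO; these intervals cover counting error only. MEG8 went from 49, 67 and 72 counts at day 0 to 8, 6 and 11 at day 3 and 6, 22 and 32 at day 7. At day 0 replicate 2 held most of them (31, 45 and 47 counts in WT, HET and KO). That replicate was also highest for DLK1 and for mesenchymal, neuron and neural progenitor markers. Between genotypes MEG3 passed the filter on low counts at days 0 and 7 and MEG8 at day 0, and neither was called; the MEG3 difference in KO at day 7 was 1.76 (SE 0.74, edgeR adjusted p = 0.083). At day 7 DLK1 was counted at least 664 times in each library, while MEG3 and MEG8 stayed at 22 counts or fewer.

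The other genes of 14q32 were taken as a list of 11. In KO at day 7, 5 of the 7 tested were called, all higher (BEGAIN, DIO3, RTL1, WARS1 and WDR25), against 32.6% of all genes called and 17% called higher. In HET BEGAIN alone was called (1 of 7, against 14.4%). BEGAIN, which encodes a postsynaptic scaffold-associated protein and is transcribed away from DLK1 on the minus strand (chr14:100537147-100587413), was at 0.479, 0.382, 0.646 and 0.368 CPM in WT at day 3, 1.03, 1.42, 1.28 and 1.01 in HET and 5.24, 8.62, 5.51 and 4.23 in KO. None of these groups overlapped another, and KO was 12.3-fold (log2 fold change 3.62, SE 0.30, edgeR adjusted p = 5.48e-06) and HET 2.55-fold above WT (log2 fold change 1.35, SE 0.29, edgeR adjusted p = 0.0216). At day 7 it was at 1.27, 5.06, 4.71 and 7.46 CPM in WT, 12.1, 27.6, 25.5 and 32.5 in HET and 20.8, 41.4, 39 and 55 in KO, and again higher in both (KO 3.08, SE 0.47, edgeR adjusted p = 0.000499; HET 2.39, SE 0.46, edgeR adjusted p = 0.00516). DIO3, the deiodinase gene at the far end of the domain (chr14:101561351-101563452) whose product inactivates thyroid hormone, was at 0.515, 0.57, 0.889 and 0.254 CPM in WT at day 7, 0.414, 1.41, 0.931 and 0.0402 in HET and 12.4, 8.38, 8.64 and 0.787 in KO. KO replicate 4 lay within the WT range and the other 3 far above it (log2 fold change 3.76, SE 0.82, edgeR adjusted p = 0.00409). WARS1, a tRNA synthetase gene that overlaps WDR25, was higher by 0.98 (SE 0.26, edgeR adjusted p = 0.0119) in KO at day 7. RTL1, a paternal retrotransposon-derived gene chosen for display after its values were seen, had 0, 5, 0 and 0 counts in the WT libraries of day 7, 2, 10, 12 and 3 in HET and 101, 74, 68 and 34 in KO; it lies opposite MEG8, so part of its reads could belong to that RNA (log2 fold change 5.69, SE 0.82, edgeR adjusted p = 0.000337).

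**Figure D4:**
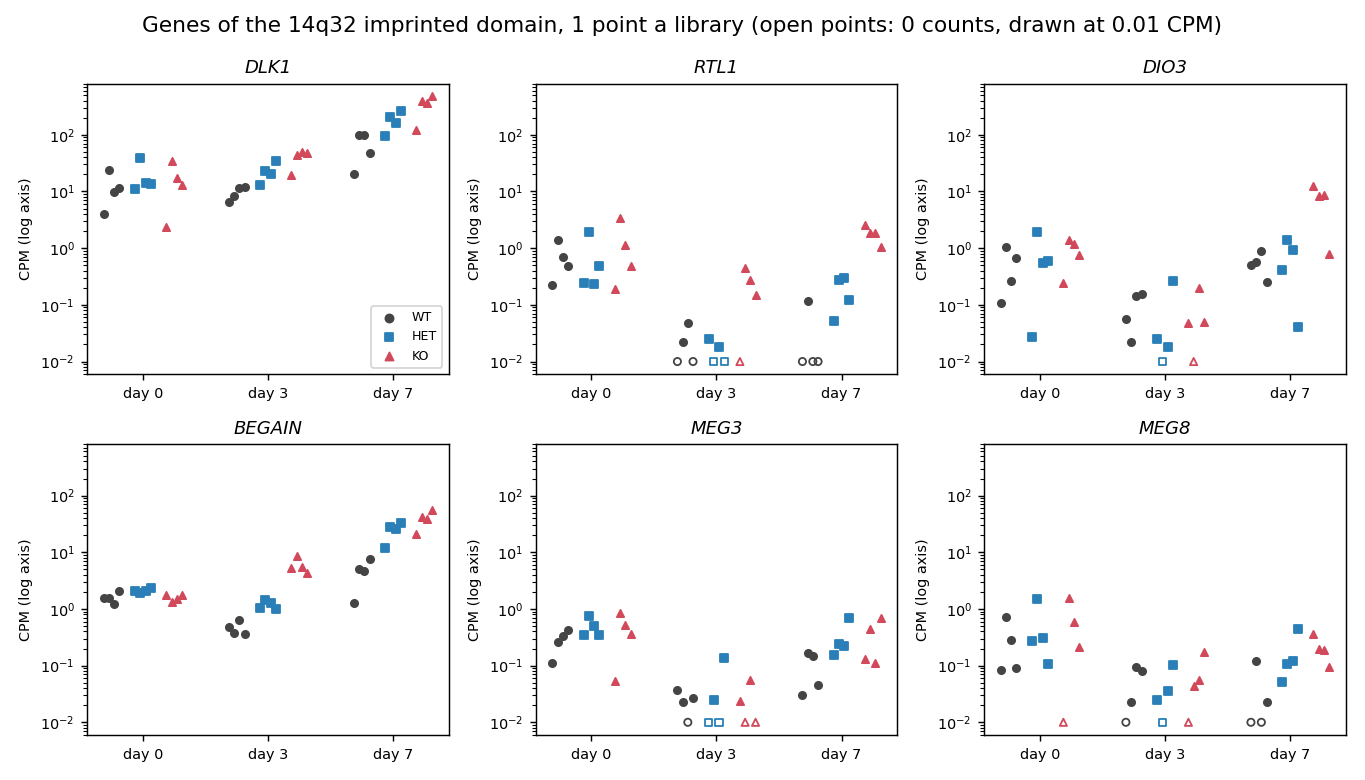
CPM per library (log axis, 1 scale for all panels) of DLK1, RTL1, DIO3, BEGAIN, MEG3 and MEG8; open points are libraries with 0 counts, drawn at 0.01 CPM. DLK1 and BEGAIN climb from day 3 to day 7 with KO above WT, whereas MEG3 and MEG8 stay under 2 CPM in every library and mostly reach their lowest values at day 3.

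PEG10, at 7q21, differed between all 3 genotypes at day 3. It was at 93.6, 155, 106 and 174 CPM in WT, 187, 289, 296 and 238 in HET and 415, 659, 615 and 492 in KO, and none of the 3 groups overlapped another. KO was 4.07-fold above WT (log2 fold change 2.02, SE 0.24, edgeR adjusted p = 7.43e-05), a call kept in every fit without 1 library. HET was 1.93-fold above WT (log2 fold change 0.95, SE 0.23, edgeR adjusted p = 0.0408), with an adjusted p of 0.0673 to 0.139 without WT day 3 replicate 1, 2 or 3 or HET day 3 replicate 2 or 3, and 0.967 in limma on log2(TPM + 1). KO was 2.11-fold above HET (log2 fold change 1.08, SE 0.23, edgeR adjusted p = 0.0207); this adjusted p was 0.0516 to 0.0816 without HET day 3 replicate 1 or KO day 3 replicate 2 or 3, and 0.457 on TPM.

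At day 0 PEG10 was at 349, 444, 392 and 371 CPM in WT, 335, 352, 427 and 330.5 in HET and 389, 523, 567 and 439.9 in KO, with KO replicates 1 and 4 inside the WT range. The KO difference of 0.33 (SE 0.13, edgeR adjusted p = 0.285) was not called. With the replicate number as a block, a pairing that the labels do not give, it was 0.32 with an edgeR adjusted p of 0.0437. By day 7 the gene had reached 883, 1118, 1944 and 2103 CPM in WT, 1698, 3016, 2480.3 and 3180.5 in HET and 2122, 2421, 2626 and 2505 in KO. KO exceeded WT without overlap, HET replicate 1 lay within the WT range, and neither mutant was called (KO 0.68, SE 0.28, edgeR adjusted p = 0.0811; HET 0.77, SE 0.28, edgeR adjusted p = 0.0851). Without WT day 7 replicate 4 both passed (adjusted p 0.0381 and 0.0481), and without HET day 7 replicate 1 HET did (0.0199). PEG3, a zinc finger gene, was counted 2 times in all, once each in 1 KO library of day 0 and 1 of day 7, and was at 0 in the other 34 libraries, so it entered no test.

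Of the 10 genes listed around PEG10 at 7q21, 4 of 6 tested were called in KO at day 3, all higher (ASB4, CASD1, PPP1R9A and TFPI2), against 21.6% of all genes called and 12.6% called higher. In HET ASB4 was called (1 of 6, against 3.28%). PPP1R9A, which encodes the synaptic actin-binding protein neurabin-1 and overlaps PPP1R9A-AS1, was at 6.87 to 9.31 CPM in WT at day 3, 9.73 to 11 in HET and 17.3 to 21.4 in KO (log2 fold change 1.26, SE 0.16, edgeR adjusted p = 0.000101). CASD1, a sialic acid acetyltransferase gene that overlaps SGCE, was at 53.1 to 78.5, 53.4 to 132 and 94.4 to 201 (log2 fold change 1.14, SE 0.27, edgeR adjusted p = 0.0093). At day 7 PPP1R9A was the only one of 4 tested that was called in KO (0.72, SE 0.19, edgeR adjusted p = 0.0111). Of 8 genes listed around PEG3, 1 or 2 were tested on a given day, and the zinc finger gene ZNF264 was called in KO at days 3 and 7 (0.73, SE 0.15, edgeR adjusted p = 0.00382 and 0.58, SE 0.12, edgeR adjusted p = 0.00346) and in HET at day 7 (0.47, SE 0.12, edgeR adjusted p = 0.0243).

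SNRPN at 15q11 differed little between genotypes. At day 7 it was at 205, 222, 292 and 268 CPM in WT, 353, 321, 328 and 306 in HET and 353, 376, 366 and 324 in KO. Both mutants lay above WT without overlap. KO was 1.44-fold higher (log2 fold change 0.53, SE 0.14, edgeR adjusted p = 0.0138), a call kept without any 1 library but not in limma on log2(TPM + 1) (adjusted p 0.234). HET was not called (0.40, SE 0.14, edgeR adjusted p = 0.079). At days 0 and 3 the genotypes overlapped, with 410.4, 399, 386 and 396 CPM in WT and 423, 356, 347 and 397 in KO at day 0 and 217, 209, 231 and 256 and 204, 179.6, 266 and 288 at day 3. HET was at 276, 368, 343 and 440.4 at day 0 and 219, 219, 239 and 290.4 at day 3.

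Of the 17 other genes listed at 15q11, 14 were in the table and 12 were tested at day 7. In KO 4 were called higher (MKRN3, MAGEL2, NDN and PWAR5) and 2 lower (NPAP1 and PWRN1), which is 6 of 12 against 32.6% of all genes. In HET SNHG14 and PWAR5 were higher and PWRN1 lower, 3 of 12 against 14.4%. NDN (chr15:23685400-23687330), which encodes the neuronal growth regulator necdin, was at 31, 37, 40.8 and 54.2 CPM in WT at day 7 and 94, 78.4, 93.7 and 70.7 in KO (log2 fold change 1.05, SE 0.18, edgeR adjusted p = 0.0011). MAGEL2 (chr15:23643549-23647867), its neighbour and a gene of the same MAGE family, was at 9.15, 14.3, 15.1 and 17 and 36.9, 37.2, 48.6 and 27.8 (log2 fold change 1.44, SE 0.26, edgeR adjusted p = 0.00134) and was also higher in KO at day 3 (0.88, SE 0.21, edgeR adjusted p = 0.00974). All KO libraries exceeded all WT libraries for both genes. PWAR5, a noncoding transcript within SNHG14 whose reads cannot be told apart from it, was at 0.697, 1.31, 1.69 and 2.29 CPM in WT, 7.23, 11.6, 12.2 and 10.1 in HET and 6.91, 10.7, 3.59 and 8.03 in KO at day 7 (HET 2.77, SE 0.39, edgeR adjusted p = 0.000905; KO 2.29, SE 0.38, edgeR adjusted p = 0.000795).

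Over time, H19, IGF2, DLK1, PEG10, KCNQ1OT1 and CDKN1C were called higher at day 7 than at day 3 in all 3 genotypes. Between day 0 and day 3, 4 of 7 members tested in WT were called (2 higher, 2 lower; 60% of all genes), 5 of 9 in HET (2 higher, 3 lower; 48.3%) and 5 of 8 in KO (3 higher, 2 lower; 59.3%). KCNQ1OT1 and CDKN1C rose in all 3 genotypes, by 1.48, 1.51 and 1.59 log2 and by 2.01, 2.20 and 2.83 log2 in WT, HET and KO. Without HET day 3 replicate 4 the CDKN1C rise in HET was 1.5. SNRPN fell in all 3, by 0.81, 0.57 and 0.71 log2, where the HET call was lost without HET day 0 replicate 4 (adjusted p 0.0527). PEG10 fell in WT (-1.56, SE 0.27, edgeR adjusted p = 0.000163) and was not called in HET (-0.53, SE 0.21, edgeR adjusted p = 0.0577) or KO (0.16, SE 0.17, edgeR adjusted p = 0.431). IGF2 was called higher in KO (2.27, SE 0.73, edgeR adjusted p = 0.0151) and not in WT (-0.39, SE 0.31, edgeR adjusted p = 0.302) or HET (0.34, SE 0.43, edgeR adjusted p = 0.535); without KO day 3 replicate 2 its change in KO was 1.85 (adjusted p 0.0507). DLK1 was not called in KO (1.24, SE 0.59, edgeR adjusted p = 0.0842), nor H19 in HET (-0.52, SE 0.55, edgeR adjusted p = 0.461). DLK1 was at 1.85 (adjusted p 0.0175) without KO day 0 replicate 2, and H19 at -1.36 (adjusted p 0.0274) without HET day 3 replicate 4. MEG3 was called lower in HET and KO, and MEG8 in HET, from the low counts given above. In WT neither passed the filter on low counts, nor did MEG8 in KO, so these were not tested. Their summed counts were also lower at day 3 than at day 0 relative to library size. The ratios were 0.0807 for MEG3 in WT, 0.142 for MEG8 in WT and 0.121 for MEG8 in KO. The numbers of members tested and called therefore differ between genotypes partly through this filter.

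Between day 3 and day 7, 6 of 7 members tested rose in WT (46.2% of all genes were called and 23.3% rose), 7 of 9 in HET (41.2% and 20.8%) and 8 of 8 in KO (47.8% and 24.3%); none was called lower. The HET and KO counts include MEG3, which was near the floor and did not pass the filter in WT. Summed over a group it went from 5 to 41 counts in HET and from 3 to 49 in KO. These shares therefore do not compare the genotypes on the same genes. IGF2 rose by 5.08 log2 in WT, 5.43 in HET and 2.91 in KO (SE 0.34, 0.49 and 0.72). The KO rise was 1.94 without KO day 7 replicate 4. PEG10 rose by 3.52, 3.36 and 2.20 log2 (SE 0.29, 0.23 and 0.18), from the lower starting points given above in WT and HET. DLK1 rose by 2.81, 2.97 and 3.14 log2 and H19 by 1.35, 3.34 and 2.21. KCNQ1OT1 rose again, by 1.04, 1.13 and 0.77 log2, as did CDKN1C, by 2.54, 2.79 and 1.53. Without HET day 3 replicate 4 the HET rises were 4.18 for H19 and 3.49 for CDKN1C. SNRPN rose in KO (0.64, SE 0.16, edgeR adjusted p = 0.00489) and was not called in WT (0.11, SE 0.13, edgeR adjusted p = 0.508) or HET (0.43, SE 0.17, edgeR adjusted p = 0.0548). In limma on log2(TPM + 1), the 6 KCNQ1OT1 calls of the time course had adjusted p of 0.056 to 0.685. There the SNRPN calls in HET at day 3 and in KO at day 7 had 0.0528 and 0.576, CDKN1C in HET at day 3 0.0643, IGF2 in KO at day 3 0.138, and H19 in WT at day 7 0.0727.

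An interaction of genotype and day, fitted to the full set of 36 libraries, compared these courses. For KO against WT, 2 of 9 members were called in each interval, against 8.55% of all genes from day 0 to day 3 and 18.5% from day 3 to day 7, and both times they were IGF2 and PEG10. The 2 intervals share the day 3 libraries, which enter them with opposite sign, so the 2 results are not independent. PEG10 changed by 1.74 log2 more in KO than in WT up to day 3 (SE 0.33, edgeR adjusted p = 0.000863) and by -1.37 (SE 0.33, edgeR adjusted p = 0.00288) from day 3 to day 7; these calls held without any 1 library, and not on TPM (adjusted p 0.0686 and 0.513). IGF2 changed by 2.68 (SE 0.83, edgeR adjusted p = 0.0388) and then by -2.21 (SE 0.79, edgeR adjusted p = 0.0489). Both IGF2 calls lay close to the threshold and were lost in most fits without 1 library. Of 16 fits without 1 library, the first was kept in 6 and had an adjusted p of 0.0504 to 0.108 in 10 (without WT day 0 replicate 2, 3 or 4, KO day 0 replicate 1 or 4, WT day 3 replicate 1, 2 or 3, or KO day 3 replicate 2 or 3). The second was kept in 3, without KO day 3 replicate 1, WT day 7 replicate 1 or KO day 7 replicate 4, and had an adjusted p of 0.0506 to 0.137 without each of the other 13. Its value was -3.21 (adjusted p 0.00218) without KO day 7 replicate 4. It was also lost with DESeq2 size factors (adjusted p 0.0509) and with library size alone (0.0567), and on TPM the IGF2 values had adjusted p of 0.416 and 0.82. For HET against WT none of 9 members was called in either interval (0.271% and 4.74% of all genes); 1 member had an unadjusted p under 0.05 each time, and neither DESeq2 nor limma called any. Without HET day 3 replicate 4 the H19 value from day 3 to day 7 went from 2.02 (SE 0.75, edgeR adjusted p = 0.133) to 2.84 (adjusted p 0.0157).

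**Figure D5:**
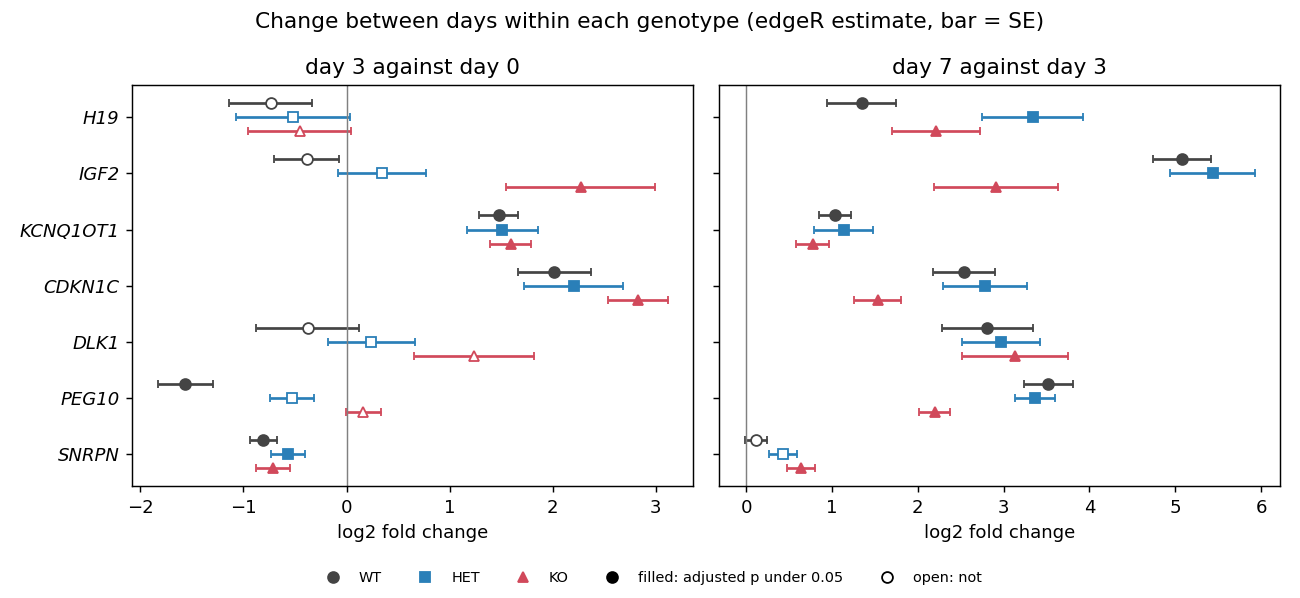
Log2 fold change between days within each genotype (edgeR estimate, bar = SE) for 7 members; circles are WT, squares HET and triangles KO, and filled symbols passed an adjusted p of 0.05. From day 0 to day 3 PEG10 is filled (lower) in WT and IGF2 (higher) in KO, and from day 3 to day 7 IGF2 and PEG10 rose less in KO than in WT.

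The group means of several members moved alike over the 9 groups, which share libraries, scaling and the time course. On log2(CPM + 1) the Pearson correlation was 0.989 for KCNQ1OT1 with CDKN1C, 0.948 for IGF2 with DLK1, 0.945 for IGF2 with PEG10 and 0.869 for IGF2 with H19, and -0.00598 for IGF2 with SNRPN (n = 9 group means; a description). Among 13417 genes screened for the most similar pattern, the nearest were LHX4 (0.998) and ZNF567-DT (0.994) for IGF2, SLC30A3 (0.993) and CRH (0.975) for H19, FBXO34 (0.995) and ZNF540 (0.995) for DLK1, and TPD52 (0.991) and LRRC4B (0.991) for PEG10. They were NPR1 (0.993) and RCHY1 (0.985) for SNRPN, SYNGR1 (0.995) and NRSN1 (0.995) for KCNQ1OT1, and EML2 (0.998) and DNAJB2 (0.996) for CDKN1C. With 9 points and so many genes, coefficients of this size are a ranking only.

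Imprinted genes outside the 10 were counted from lists of 92 genes, 86 of which were in the table. In KO 5 of 62 tested were called at day 0 (8.06%; FAM50B, GRB10, INPP5F and INS higher and NLRP2 lower), 17 of 56 at day 3 (30.4%; 11 higher) and 31 of 63 at day 7 (49.2%; 22 higher). In HET the counts were 3 of 62 (4.84%: FAM50B, GRB10 and INS), 3 of 56 (5.36%) and 11 of 63 (17.5%), each beside the shares of all genes given above. INS was close to the floor. At day 0 it had 0, 3, 0 and 0 counts in WT, 8, 12, 9 and 6 in HET and 10, 13, 14 and 5 in KO. At day 3 it had 2, 15, 14 and 8 counts in WT and 0 in each KO library. NLRP2 (chr19:54953130-55001142, overlapping NLRP7), which encodes a protein of the maternal complex of the oocyte, was close to 0 in KO: the 4 WT libraries of day 0 held 14893 counts and the 4 KO libraries 1, a ratio of 8.00e-05 (95% counting interval 2.03e-06 to 0.000446), while HET was at 69.1, 79.8, 79.6 and 93.5 CPM against 89.6, 93.7, 99.5 and 102 in WT. At days 3 and 7 all KO libraries were at 0, at least 1280-fold and 1390-fold lower than WT (3 counts per group as the floor). INPP5F (chr10:119726042-119829278, overlapping the pseudogene PHACTR2P1), a phosphoinositide phosphatase gene, was higher in KO, at 177, 188, 202 and 189 CPM at day 0 against 27.5, 31.6, 31.4 and 27.4 in WT (log2 fold change 2.71, SE 0.08, edgeR adjusted p = 5.34e-10), and was still higher at days 3 and 7 (2.20, SE 0.25, edgeR adjusted p = 6.79e-05 and 1.55, SE 0.20, edgeR adjusted p = 0.000186). For both genes the KO libraries stood apart from all WT and HET libraries of the same day. NAP1L5, which lies within HERC3, was higher at day 7 in KO (1.86, SE 0.29, edgeR adjusted p = 0.000593) and HET (1.16, SE 0.29, edgeR adjusted p = 0.0179). At 11p15, 4 of 11 tested list genes were called in KO at day 7, a share near the 32.6% of all genes: IGF2-AS, KCNQ1DN and PHLDA2 were higher, and SLC22A18, a transporter gene overlapping SLC22A18AS, was lower (-0.95, SE 0.34, edgeR adjusted p = 0.0473). IGF2-AS was low in every group, with a highest group mean of 0.684 CPM. OSBPL5, a lipid transfer gene, was higher in KO at day 3 (0.75, SE 0.15, edgeR adjusted p = 0.00371). Of 12 genes that maintain imprints 8 or 9 were tested on a given day. UHRF1, which brings DNMT1 to newly replicated DNA, was the only one of them called against WT, and it was lower in KO at days 3 and 7 (-1.20, SE 0.31, edgeR adjusted p = 0.0156 and -0.88, SE 0.24, edgeR adjusted p = 0.0145) and in HET at day 7 (-0.97, SE 0.24, edgeR adjusted p = 0.0181).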

How the data were processed

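RNA-seq values of 36 libraries (9 groups of 4) were analysed. Per the submitters' processing notes the authors used cutadapt 4.8, STAR 2.7.8a and RSEM 1.3.3, with FastQC 0.11.8 and MultiQC 1.20, and GRCh38; annotation and strand settings are not given in the sources used here. The deposited expected counts were whole numbers and were not normalized. The TPM values deposited by the authors are scaled to length and library total, so small structural RNAs take a share of that total. Depth was 23.9 to 56.7 M counts per library; its limit is on MEG3, MEG8 and PEG3.

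Expected counts were scaled with TMM and tested with edgeR 4.0.16 (quasi-likelihood, filterByExpr, Benjamini-Hochberg over all genes tested, threshold 0.05; R 4.3.3) in 19 comparisons: 12 libraries of a day or of a genotype per fit, and all 36 for interactions. The 4 reporter features (at most 0.0171% of a library) were left out. SE is the log2 fold change divided by the square root of F. A value was taken as above the floor with over 3 counts. Alternatives were other scalings, DESeq2 1.42.0, limma 3.58.1 on log2(TPM + 1), no filter, a replicate block, all libraries in 1 fit, and each library left out; the structural RNA share as a covariate was added after seeing the data. The scripts were tested on simulated data. Figures were drawn with matplotlib 3.10.9 in Python 3.11.15.

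The labels number replicates 1 to 4 in each group but name no shared batch behind a number. The correlation of same-numbered libraries' deviations from their group means was over 0.1 in all 4 pairs in 3 of 15 comparisons: KO against WT at day 0 (0.252 to 0.628) and day 3 (0.14 to 0.549), and HET against WT at day 3 (0.166 to 0.767). This pairing was read from the same libraries that were then tested, so it is not established. Blocked values stand beside those results where they change a call, as an alternative only.

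The members and gene lists were chosen with earlier results of these data known. Beside the members, up to 3 genes of each list were named by the largest absolute change among those called against WT with at least 5 CPM, and 2 genes per member by pattern; RTL1 and the other genes listed as called were named after their values were seen. Genes were located with GENCODE 29 by Ensembl identifier (58274 matched).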

Additional observations from a re-analysis of the deposited data

Results flagged for a closer look

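In groups of 4 libraries, 1 library stood far from the other 3 in 7 of the 78 gene and group combinations examined; chance gives about 1 in 20. H19 was at 4.10 CPM in WT day 3 replicate 4 (the other 3 at 2.03 to 2.38), at 6.19 in HET day 3 replicate 4 (1.10 to 1.82) and at 52.7 in HET day 7 replicate 4 (16.9 to 20.9). DLK1 was at 39.1 CPM in HET day 0 replicate 2 (11.1 to 14) and MEG8 at 1.51 CPM in the same library (0.106 to 0.307). MEG3 was at 0.683 CPM in HET day 7 replicate 4 (0.156 to 0.244), and KCNQ1OT1 at 466 CPM in WT day 7 replicate 2 (325 to 330.0).

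For 2 genes the course over days in KO departed from that in WT by the interaction test in edgeR. From day 0 to day 3 the difference was 2.68 log2 for IGF2 and 1.74 for PEG10, and from day 3 to day 7 it was -2.21 for IGF2 and -1.37 for PEG10. The same day 3 libraries enter both intervals with opposite sign.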

How the results depend on the processing

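Of 156 tested differences of members, 48 were called; 26 of these passed under every alternative and none changed sign. Of the 108 not called, 19 passed in some alternative and 50 changed sign, so their directions carry no weight. The causes of the shifts below were not tested. The IGF2, DLK1 and PEG10 calls in KO at day 3 and DLK1 in KO at day 7 were kept throughout. Precision is limited by 4 libraries per group, and by depth for MEG3, MEG8 and PEG3.

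Members called changed as follows. In limma on log2(TPM + 1) there were 0 in HET at days 3 and 7, 0 for KO against HET at day 3 and 0 in both KO interactions, 1 in KO at day 7, 2 in HET and 3 in KO from day 0 to day 3, and 5 in KO from day 3 to day 7. In HET at day 3 library size alone, DESeq2, no filter and the structural RNA covariate each gave 2. In HET at day 7 DESeq2 gave 4, no filter 2 and 1 fit of all libraries 3. DESeq2 size factors gave 1 in the KO interaction from day 3 to day 7. Leaving out 1 library gave 0 to 2 in HET at day 3, 0 to 3 in HET at day 7, 0 to 2 for KO against HET at day 3, 1 to 2 in each KO interaction and 0 to 1 in the HET interaction from day 3 to day 7.

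With the replicate number as a block, members called were 1 in KO at day 0, 1 for KO against HET at day 0, 2 in HET at day 3, 4 for KO against HET at day 3, 4 in KO at day 7 and 3 in HET at day 7. In the 3 comparisons with all 4 correlations over 0.1, the block raised all genes called from 425 to 960 in KO at day 0, from 4649 to 8138 in KO at day 3 and from 708 to 1895 in HET at day 3. Beyond the blocked values given with the results it changed no other member's call there. In the other 12 comparisons, it raised counts in HET at day 0 (333 to 689) and for KO against HET at day 3 (937 to 2739). In none of these 12 did every library correlate best with its own number. Of the accepted 3, that held for KO against WT at day 0 only. At day 3, 3 of 4 KO libraries and 2 of 4 HET libraries correlated best with the WT library of their number. In HET at day 0, which missed the cut-off, 3 of 4 did. The cut-off therefore does not cleanly separate paired from unpaired comparisons.

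All genes called moved by over 1.5 times elsewhere. Counts in limma on log2(TPM + 1) were 238, 816 and 1007 in KO at days 0, 3 and 7 (of 425, 4649 and 7070), 184, 39 and 271 in HET (of 333, 708 and 3129), and 39 for KO against HET at days 3 and 7 (of 937 and 305). They were 6734 in WT from day 3 to day 7 (of 10284), 5171 and 2587 in HET (of 10488 and 8955), 8508 and 4496 in KO (of 13088 and 10555), 321 and 942 in the KO interactions (of 2118 and 4588) and 109 in the later HET interaction (of 1174). DESeq2 gave 902 in KO and 655 in HET at day 0, 1321 in HET at day 3, 1853 and 857 for KO against HET at days 3 and 7, and 204 in the earlier HET interaction (of 67). All libraries in 1 fit gave 1161 in HET at day 3 and 1788 and 951 for KO against HET at days 3 and 7, and the covariate 1766, 1338 and, in the earlier HET interaction, 107. Without 1 library the lowest and highest counts were 385 (HET day 3 replicate 3) and 1416 (HET day 3 replicate 4) in HET at day 3, 334 (HET day 3 replicate 1) and 1241 (KO day 3 replicate 4) for KO against HET at day 3, 1700 (HET day 7 replicate 3) and 7674 (HET day 7 replicate 1) in HET at day 7, and 146 (KO day 7 replicate 3) and 626 (HET day 7 replicate 3) for KO against HET at day 7. In the interactions they were 1320 (KO day 3 replicate 1) and 3140 (KO day 3 replicate 4) in the earlier KO, 42 (HET day 3 replicate 3) and 195 (HET day 3 replicate 4) in the earlier HET and 729 (HET day 7 replicate 3) and 2353 (HET day 7 replicate 1) in the later HET.

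In limma the share of calls that were higher moved from 58.6% to 85.9% in KO and 76.8% to 64.1% in HET at day 3 (65.2% with the block), from 52% to 14.7% and 50.4% to 26.7% in WT over the intervals, from 50.5% to 21% in HET and 50.1% to 28.5% in KO to day 3, from 50.8% to 34.5% in KO to day 7, and from 67.2% to 36.5% and 43.4% to 65.1% in the HET interactions. It was 51.1% in place of 62.7% on library size alone in the earlier KO interaction, and 36.8% (1 fit) or 59% (covariate) in place of 47.5% for KO against HET at day 7. The median of all genes on TPM moved by over 0.1, to 0.202 and 0.131 in KO and HET at day 3, 0.175 and 0.458 at day 7 and -0.222 for KO against HET at day 7. It was -0.377 and -0.101 in WT over the intervals, -0.296 in HET to day 3, -0.179 and -0.168 in KO, 0.165 in the earlier KO and 0.236 in the later HET interaction, and -0.127 in KO to day 7 on library size alone.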

Other observations

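Libraries that share a replicate number stood out together in several genes of these loci. Among day 0 libraries, replicate 2 had the highest sum of 10 mesenchymal markers in each genotype (1130, 1410 and 1480 CPM in WT, HET and KO). In each genotype it had the highest neuron and neural progenitor sums and the lowest stem cell sum too. It was also the highest library of its group for DLK1, MEG8, RTL1 and, in all genotypes, DIO3: DIO3 was at 1.05, 1.92 and 1.38 CPM there, against 0.0269 to 1.19 CPM in the other day 0 libraries. RTL1 was at 1.42, 1.95 and 3.43 CPM, against 0.189 to 1.12 in the others. MEG3 was highest in replicate 2 in HET and KO and in replicate 4 in WT. Among day 3 libraries, replicate 4 had the highest mesenchymal sum (576, 895 and 341 CPM) and the highest H19 in each genotype. Its stem cell and neural progenitor sums were the highest in each genotype too, and its neuron sum the lowest in HET and KO. CDKN1C was also highest in replicate 4 in each genotype, by a small margin in KO, and KCNQ1OT1 in WT and HET.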
